A study of Bubalus bubalis with 9 samples.

Results

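The genes of the ribosomal proteins, those of the cytosolic ribosome and those of the mitochondrial ribosome, were followed in granulosa cells of Chinese buffalo (Bubalus bubalis) through follicular atresia. Granulosa cells line the ovarian follicle, and atresia is the decay by which most follicles are lost instead of ovulating. RNA had been sequenced from 9 samples of granulosa cells from the ovary: 3 of healthy, 3 of early atretic and 3 of late atretic follicles. The labels give no animal age, treatment or genotype for any group, and they do not say whether samples came from separate animals. Members were chosen by gene name: symbols made of RPL or RPS and a number, with the S6 kinase genes left out, were taken as cytosolic, and symbols made of MRPL or MRPS and a number as mitochondrial. This gave 77 cytosolic genes (46 of the large and 31 of the small subunit) and 77 mitochondrial genes (49 MRPL and 28 MRPS genes), together 154 of 20801 genes. Subunits were assigned by the letter L or S of the symbol alone, not by the place of the protein in the ribosome. Of the 154 symbols, 149 were also found in the RefSeq annotation of the buffalo assembly NDDB_SH_1.

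Cytosolic ribosomes translate the messenger RNAs that come from the nucleus. Their protein genes are highly expressed in nearly all cells, and their messenger RNAs carry a terminal oligopyrimidine tract through which the mTOR pathway controls their translation. Mitochondrial ribosomes descend from bacterial ones. They are built from nuclear-encoded proteins that are imported into the mitochondrion, and they translate the few subunits of the respiratory chain that the mitochondrial genome encodes. In granulosa cells the respiratory chain sits beside the first step of steroid synthesis, which takes place in the mitochondrion.

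The authors' deposited tables, 1 for each pair of groups, list for every gene the mean normalized read count of both groups, their log2 fold change and its raw and adjusted p. The pairs are called early against healthy, late against healthy and late against early atresia here, with the first group over the second. The values of the single samples were not used here, so library depth is unknown and no standard deviation can be given. An error written as ± is the standard error on the log2 scale that the deposited fold change and p-value imply under a two-sided normal test; a gene with a deposited p of 0.9 or more has none. A gene is said to rise or fall only where its adjusted p by the authors' deposited table was below 0.05. The tables were scaled separately, so that a group's means differ slightly between them, by a median factor of 1.03 for the healthy, 1.01 for the early atretic and 1.05 for the late atretic group. Normalized read counts are not corrected for gene length, so levels are compared between groups and not between genes. In whole granulosa samples, fewer cells of a type and less RNA per cell cannot be told apart.

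Nearly all members were detected. RPL10L, a copy of RPL10 known from the testis in other mammals, was listed at 0 in all 3 groups. RPL3L, the striated muscle form of RPL3, was listed at 0 in healthy follicles and at 2.02 in early atretic ones by the authors' deposited table of that pair, and at 0.32 in late atretic follicles by the authors' deposited table of late against early. No fold is given for it against healthy follicles. The other 76 cytosolic genes, RPL3L included, and all 77 mitochondrial genes had a p-value in all 3 comparisons.

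Summed over their members, the cytosolic genes made up 4.60% of all normalized read counts in healthy follicles and 5.32% in early atretic follicles, as computed from the authors' deposited table of that pair. The cytosolic sum itself was 665936 in healthy and 711540 in early atretic follicles, a ratio of 1.07. The total over all genes had a ratio of 0.924 in that pair, so the share differed by more than the sum. In late against early atresia the share was 4.12% against 5.31%, a ratio of shares of 0.776. In late against healthy it was 4.12% against 4.60%. The highest share was therefore that of early atretic follicles and the lowest that of late atretic follicles. The mitochondrial genes summed to 0.242% in healthy, 0.241% in early atretic and 0.239% in late atretic follicles, so their share was nearly level across the stages. With the 100 highest other genes left out of the total, the mitochondrial genes held 0.341%, 0.317% and 0.319%. Their sum was 35050 in healthy and 32202 in early atretic follicles, a ratio of 0.919, close to that of the total. The ratio of the cytosolic sum to the mitochondrial sum was 19.0 in healthy, 22.1 in early atretic and 17.2 in late atretic follicles. These sums have no error, since each group has 1 mean per gene. Shares also depend on the rest of the total: 15 granulosa markers, inhibin subunits among them, took 6.75% of the healthy total and 2.19% of the early atretic total in the same table. Their part in the change of the cytosolic share was not tested.

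**Figure D1:**
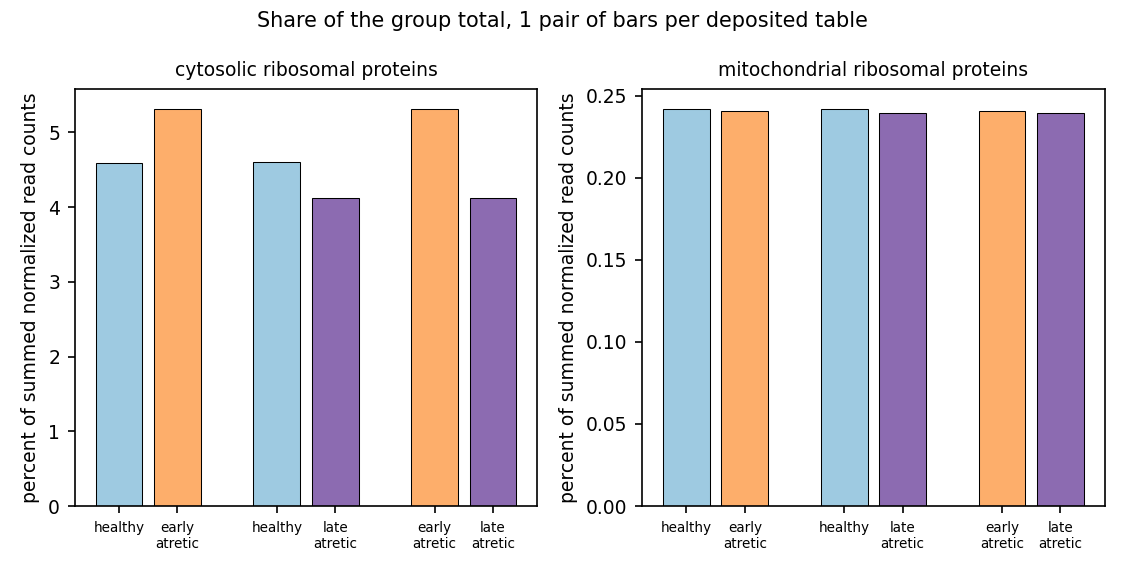
Percent of the summed normalized read counts held by the cytosolic (left) and mitochondrial (right) ribosomal protein genes, with 1 pair of bars for each deposited table; bars stand for group means and have no error. The cytosolic share was 4.60% in healthy, 5.32% in early atretic and 4.12% in late atretic follicles, while the mitochondrial share lay between 0.239% and 0.242%.

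Early against healthy is the comparison that asks what differs when atresia begins. No cytosolic ribosomal protein gene passed in it. Of the 76 tested cytosolic genes 0 were called higher and 0 lower by the authors' deposited table, where 8.59% of 17386 tested genes were called higher and 4.35% lower. The tool behind these calls was not given in the sources used here. At an unadjusted p below 0.05, 4 cytosolic genes were higher and 1 lower, against 13.7% and 9.82% of all tested genes. Both counts lie below the background. Of the cytosolic genes, 56 had a log2 fold change above 0 and 20 below, with 48.6% of all tested genes below 0. This split was 65 above and 10 below when fold changes were scaled to the median ratio of genes with both means at least 100. Under that scaling 40.7% of all tested genes were below 0. The median log2 fold change of the cytosolic genes was 0.09, against 0.02 for all tested genes, and the median implied error of a cytosolic gene was 0.17. A typical cytosolic gene was thus within its own error of no difference.

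The 4 cytosolic genes with an unadjusted p below 0.05 on the higher side were RPS28, RPS21 and RPS18 of the small subunit and RPL37, a zinc-binding protein of the large subunit. RPS28 had a mean of 3528 in healthy follicles and 5653 in early atretic ones by the authors' deposited table, which gives 0.68 ± 0.32 as log2 fold change with an adjusted p of 0.15. For RPS21 the means were 1067 and 1648, at 0.63 ± 0.28 on the log2 scale with an adjusted p of 0.14 by the authors' deposited table. RPL37 stood at 4728 and 6303, a log2 fold change of 0.42 ± 0.21 with an adjusted p of 0.20 by the authors' deposited table. None of them passed. RPS2, which had the largest gain in the sum, went from 28300 to 35293 without passing, with a log2 fold change of 0.32 ± 0.19 by the authors' deposited table.

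Late against healthy asks what differs when atresia is advanced. Of 76 cytosolic genes, 1 was called lower and 0 higher by the authors' deposited table, where 0.397% of 17366 tested genes were called lower and 3.98% higher. With an unadjusted p below 0.05 there were 6 cytosolic genes lower and 0 higher, against 2.96% and 9.20% of all tested genes; among genes with a mean of at least 1000, 5.89% were lower at that p. RPL37A, RPS19, RPS27, RPS28 and RPS29 were among the 6, and none of these named genes passed after adjustment. The share of the 76 cytosolic genes that the 6 make up, 7.89%, is close to that of highly expressed genes.

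The fold changes of the cytosolic genes were mostly negative in this comparison. In late against healthy 70 of 76 had a log2 fold change below 0 by the authors' deposited table, where 47.0% of all tested genes and 57.7% of those with a mean of at least 1000 did. The median of the cytosolic genes was -0.23, with an interquartile range from -0.37 to -0.10, and the median of all tested genes was 0.03. The median implied error of a cytosolic gene was 0.22. The difference was therefore shared by many genes and about the size of the error of any 1 of them, and genes measured in the same samples are not independent.

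Among cytosolic genes with a mean of at least 100, RPS29, a zinc-binding protein of the small subunit, had the lowest log2 fold change of late against healthy, -1.09 ± 0.41, with means of 6356 and 2995 and an adjusted p of 0.13 by the authors' deposited table. RPS27A, which is made as a fusion with ubiquitin, had means of 1934 and 988 and a log2 fold change of -0.97 ± 0.55, so its error was wide and its adjusted p 0.52 by the authors' deposited table. RPS28 stood at 3433 and 1914, or -0.84 ± 0.43, with an adjusted p of 0.41 by the authors' deposited table. Against these, RPL26, a large subunit protein known in human cells to bind the p53 messenger RNA, had the highest value of this set, 0.68 ± 0.47, with means of 1719 and 2763 and an adjusted p of 0.70 by the authors' deposited table. Of these 4 genes none passed.

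Late against early atresia asks how atresia proceeds, and it is the comparison in which the cytosolic genes lay lowest. Only 19 of 17552 genes passed by the authors' deposited table, 3 higher (0.0171%) and 16 lower (0.0912%). RPL37 was 1 of the 16. Its mean was 6372 in early atretic and 3544 in late atretic follicles by the authors' deposited table, which gives -0.85 ± 0.19 as log2 fold change with an adjusted p of 0.015. At an unadjusted p below 0.05, 29 of the 76 cytosolic genes (38.2%) were lower and 0 higher, where 3.00% of all tested genes were lower and 2.36% higher, and 5.45% of genes with a mean of at least 1000 were lower. Of the 76, 71 had a log2 fold change below 0, against 44.7% of all tested genes. Their median was -0.34 with an interquartile range from -0.52 to -0.14, while the median of all tested genes was 0.06.

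Lower values were found in both subunits. Of 45 tested large subunit genes, 16 were lower at an unadjusted p below 0.05, with a median log2 fold change of -0.33 by the authors' deposited table. Of 31 small subunit genes, 13 were, with a median of -0.44. The difference between the subunits was not tested. The summed count of the cytosolic genes differed by -150638 between late and early atretic follicles, and it took the 14 genes with the largest differences to reach 50% of this. RPS2, with 35684 and 24690, gave the largest single part. The 10 largest parts together made up 40.4% of the net difference, so the lower sum was spread over many genes.

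**Figure D2:**
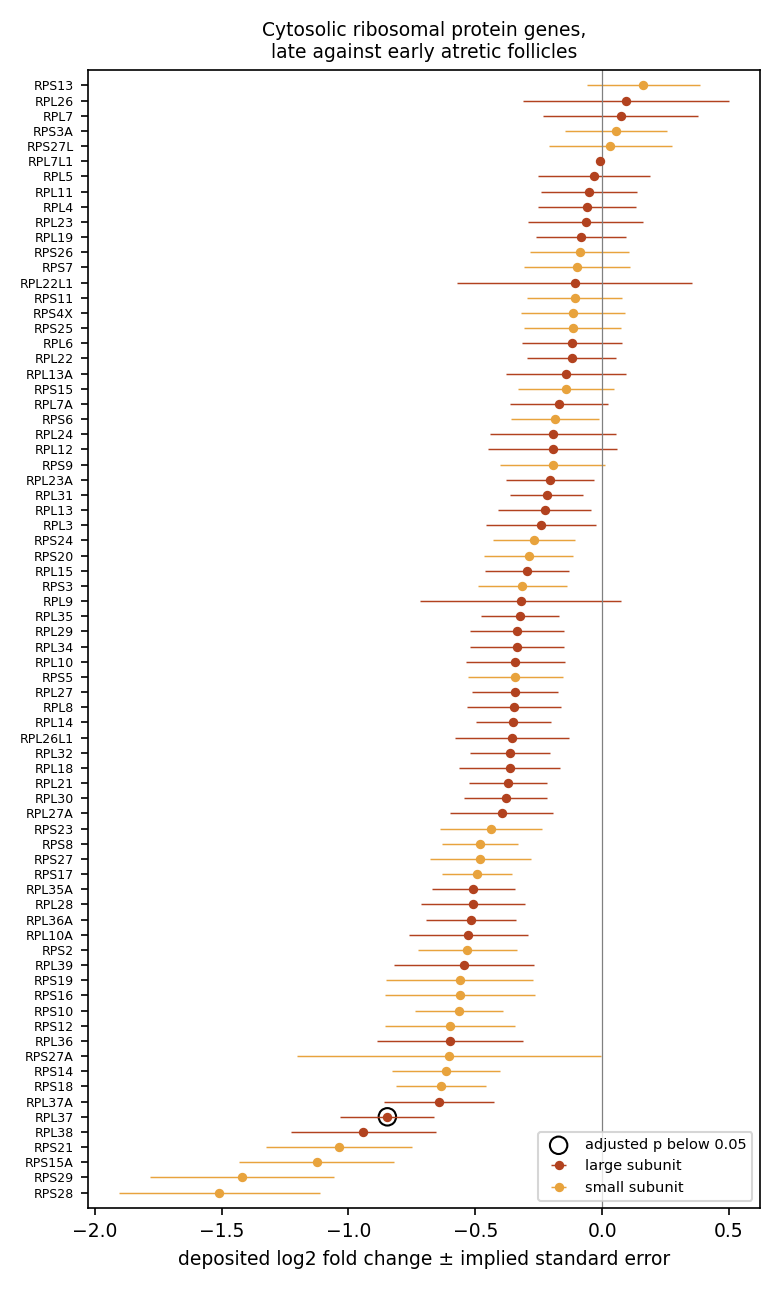
Deposited log2 fold change of late against early atresia for the cytosolic ribosomal protein genes that are reported and have a mean of at least 100, ordered by value; points are large or small subunit genes, bars are the implied standard error (none where the deposited p was 0.9 or more), and a ring marks an adjusted p below 0.05. Values ran from -1.51 for RPS28 to 0.16 for RPS13, and RPL37 carries the ring.

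With genes of means under 100 set aside, the 4 lowest values of late against early atresia belonged to small subunit genes. RPS28 had means of 5711 and 2006 by the authors' deposited table, which gives -1.51 ± 0.40 as log2 fold change with an adjusted p of 0.076. For RPS29 the means were 8401 and 3140, at -1.42 ± 0.36 with an adjusted p of 0.062 by the authors' deposited table. RPS15A stood at 5441 and 2493, or -1.13 ± 0.31, with an adjusted p of 0.10 by the authors' deposited table. None of these 3 passed, although their log2 fold changes were lower than that of RPL37; their implied errors were larger. RPS21 followed at -1.04 ± 0.29 and RPL38 at -0.94 ± 0.29 by the authors' deposited table, with adjusted p of 0.12 and 0.23. RPS28 and RPS21 also had the highest values among such genes in early against healthy. That comparison shares the early atretic samples with this one, so the values stand side by side and are not independent.

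The 5 cytosolic genes above 0 in late against early atresia were RPS13, RPL26, RPL7, RPS3A and RPS27L. RPS13 had the highest, 0.16 ± 0.22 by the authors' deposited table, with means of 2895 and 3241. RPS3A stood at 14957 and 15545, at 0.06 ± 0.20 by the authors' deposited table. All 5 lay within their own error of 0. When fold changes were centred on the median of all tested genes, RPS3A and RPS27L were just below 0.

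Some members have known roles beside translation. RPL5 and RPL11, which bind the p53 regulator MDM2 when ribosome assembly is disturbed, were close to level. RPL5 had means of 16350 (healthy) and 16778 (early atretic) by the authors' deposited table, and 16964 in early and 16597 in late atretic follicles in the other table, at -0.03 ± 0.22. RPL11 had 8463 and 8425, then 8517 and 8212, at -0.05 ± 0.19 for late against early by the authors' deposited tables. RPS6, the substrate of the S6 kinases, had 8486 and 8938, then 9036 and 7940, at -0.19 ± 0.17 by the authors' deposited tables. For late against early atresia RPL5 and RPL11 thus lay within 1 standard error of 0, and RPS6 just beyond it.

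RPS19, the gene most often mutated in human Diamond-Blackfan anemia, had means of 9897 (healthy) and 9683 (early atretic) by the authors' deposited table, at -0.03 on the log2 scale. In late against healthy it stood at 9624 and 6320, or -0.61 ± 0.30, with an adjusted p of 0.39 by the authors' deposited table. RPS14, which shares a role in maturation of the small subunit RNA, had 16383 and 19936 in the early comparison at 0.28 ± 0.19, and 20154 and 13152 in late against early at -0.62 ± 0.21 by the authors' deposited tables. RPL10, a late-joining protein of the large subunit, stood at 26395 and 26577 in the early comparison and at 26874 and 21209 in late against early, or -0.34 ± 0.20, by the authors' deposited tables. RPL3, which reaches into the peptidyl transferase centre, had 25884 and 21883 in late against early at -0.24 ± 0.22 by the authors' deposited table. None of these 4 passed in any comparison.

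Paralogous pairs were measured apart, although reads of near-identical copies and pseudogenes may be shared out between them or dropped in the authors' counts. RPL26 and RPL26L1 had opposite signs: in late against healthy RPL26 was at 0.68 ± 0.47 and RPL26L1, with means of 650 and 437, at -0.57 ± 0.30 by the authors' deposited table. Their difference of 1.26 compares with a root sum of squared errors of 0.56, but neither gene passed and the difference itself was not tested. It was 0.81 with 0.54 in early against healthy, and 0.45 with 0.46 in late against early atresia. RPS27 and RPS27L, the latter induced by p53 in human cells, were at -0.48 ± 0.20 and 0.03 ± 0.24 in late against early atresia by the authors' deposited table. The difference of RPS27 from RPS27L had the other sign in early against healthy, 0.32. In late against healthy it was -0.19, with a root sum of squared errors of 0.39. RPL22 and RPL22L1 differed in late against early atresia by -0.01, with a root sum of squared errors of 0.50. There RPL7 and RPL7L1 differed by 0.08.

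Among the mitochondrial genes 1 of 77 passed in any comparison. MRPS6, of the small subunit, fell in early atretic follicles, from a mean of 1946 to 844 by the authors' deposited table, which gives -1.21 ± 0.24 as log2 fold change with an adjusted p of 2.1e-05. In late against healthy it stood at 1890 and 1224, or -0.63 ± 0.38, with an adjusted p of 0.59 by the authors' deposited table. For late against early the means were 852 and 1283, at 0.59 ± 0.38 by the authors' deposited table. The late atretic mean thus lay between those of the healthy and early atretic follicles without passing against either. In the RefSeq annotation of NDDB_SH_1, which may not be the annotation the authors counted with, MRPS6 overlaps SLC5A3, a myo-inositol transporter gene. SLC5A3 also fell in early atretic follicles, from 1339 to 470, by 1.51 ± 0.41 on the log2 scale with an adjusted p of 0.0040 by the authors' deposited table. How the authors assigned reads from the stretch that both genes cover is unknown. Some reads counted for MRPS6 may therefore belong to SLC5A3, and the value of MRPS6 is uncertain. In the same annotation RPL37 overlaps a small nucleolar RNA gene. RPS28 overlaps NDUFA7, a respiratory chain gene, which had means of 684 and 593 in late against early atresia, at -0.20 ± 0.23 by the authors' deposited table.

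The other 76 mitochondrial genes showed no call. For early against healthy, 0 mitochondrial genes were called higher and 1 lower, against 8.59% and 4.35% of all tested genes, and 0 were higher and 2 lower (MRPS6 and MRPL1) at an unadjusted p below 0.05, against 13.7% and 9.82%, by the authors' deposited table. Of the 77, 27 were above 0 and 50 below, with a median of -0.09 and a median implied error of 0.21. Of all tested genes 48.6% were below 0, and of those with a mean from 100 to 1000, 57.0% were. This split was 37 above and 40 below when fold changes were scaled to the median ratio of genes with both means at least 100. Under that scaling 40.7% of all tested genes were below 0. MRPL1 had means of 203 and 150, at -0.43 ± 0.20 with an adjusted p of 0.16 by the authors' deposited table. MRPS28 was at -0.49 ± 0.27 and MRPL2 at -0.36 ± 0.25 by the authors' deposited table. On the other side MRPL13 had means of 218 and 306, at 0.49 ± 0.26, and MRPL12, which binds the mitochondrial RNA polymerase, 340 and 443, at 0.38 ± 0.27 by the authors' deposited table. Apart from MRPS6, the mitochondrial genes lay within about 0.5 of no difference on the log2 scale.

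**Figure D3:**
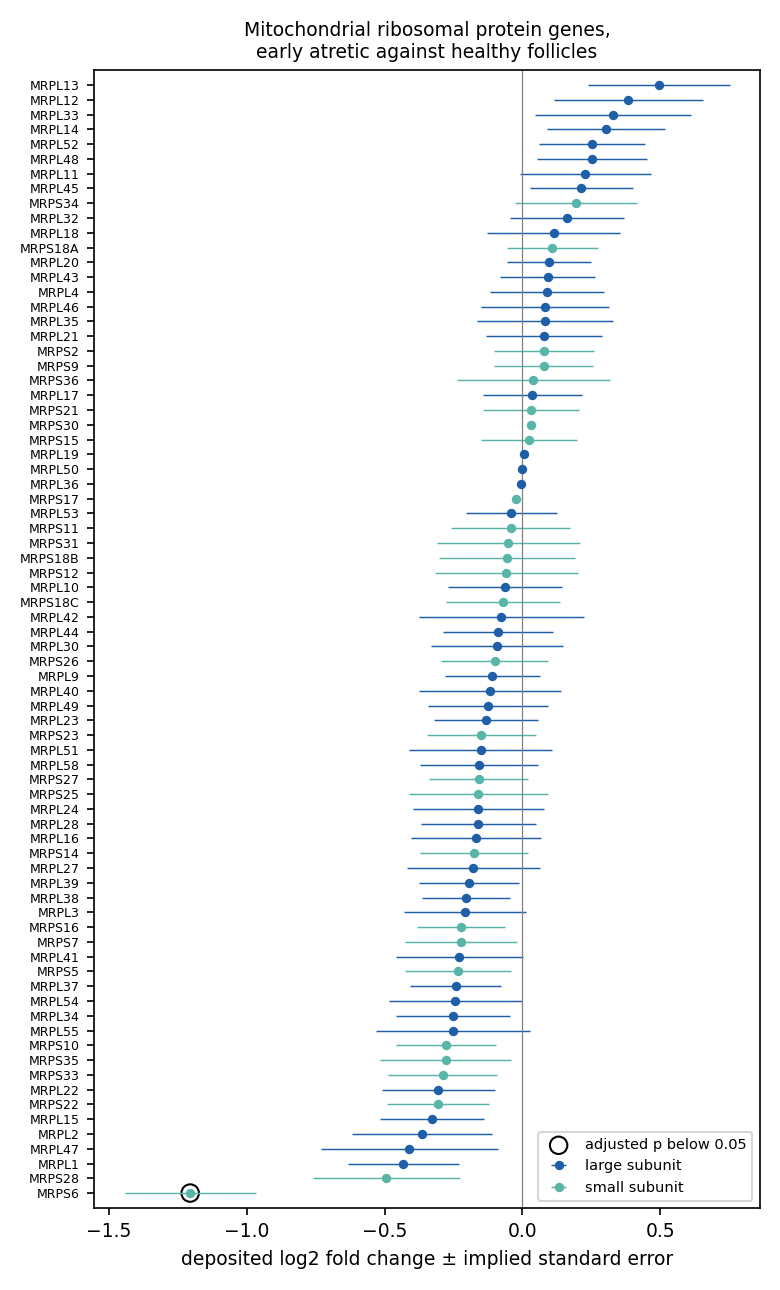
Deposited log2 fold change of early against healthy for the mitochondrial ribosomal protein genes with a mean of at least 100, ordered by value. Points are large or small subunit genes by the letter L or S of the symbol. Bars are the implied standard error (none where the deposited p was 0.9 or more), and a ring marks an adjusted p below 0.05. MRPS6 stands apart at -1.21, and the others run from -0.49 for MRPS28 to 0.49 for MRPL13.

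In late against healthy 0 mitochondrial genes passed, and at an unadjusted p below 0.05 0 were higher and 1 lower, against 9.20% and 2.96% of all tested genes, by the authors' deposited table. That gene was MRPL23, with means of 765 and 451, at -0.76 ± 0.27 with an adjusted p of 0.094 by the authors' deposited table. The median of the 77 genes was -0.07, with 31 above 0 and 46 below. Of all tested genes 47.0% were below 0 there, and of those with a mean from 100 to 1000, 51.2% were. In late against early atresia 0 passed, while at an unadjusted p below 0.05 MRPL1 and MRPS33 were higher and MRPL23 and MRPL57 lower, that is 2 of 77 each way against 2.36% and 3.00% of all tested genes. MRPS33 had means of 556 and 754, at 0.44 ± 0.21, and MRPL23 of 726 and 473, at -0.62 ± 0.26, by the authors' deposited table. There the median was 0.00 to 2 decimals, with 38 genes above 0 and 39 below, against 44.7% below 0 over all tested genes and 41.3% over those with a mean from 100 to 1000. MRPS18A, MRPS18B and MRPS18C, the 3 mitochondrial copies of a bacterial protein, were at -0.21 ± 0.19, 0.29 ± 0.31 and 0.15 ± 0.26 in that comparison by the authors' deposited table.

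Of the mitochondrial genes, 44 carry the numbers of bacterial proteins and 33 carry higher numbers, given to proteins that the mitochondrial ribosome has in addition. In early against healthy their medians were -0.06 and -0.12, in late against healthy -0.06 and -0.11, and in late against early atresia 0.00 and -0.01. These differences are below the implied error of a single gene. MRPS22, which belongs to the added proteins, had means of 540 and 437 in the early comparison, at -0.31 ± 0.18 with an adjusted p of 0.32 by the authors' deposited table. MRPS30, another of them, had 273 and 278 in the same table, a log2 fold change of 0.03.

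Set against each other, the classes differed most in late against early atresia. The median log2 fold change of the cytosolic genes minus that of the mitochondrial genes was 0.17 in early against healthy, -0.16 in late against healthy and -0.34 in late against early atresia. In the last comparison 71 of 76 cytosolic genes lay below the mitochondrial median, in late against healthy 64 did, and in early against healthy 9. The comparisons share groups, so these values are not independent of each other. Among members with a mean of at least 100, the standard deviation of the log2 fold changes over cytosolic genes was 0.19 in early against healthy, 0.26 in late against healthy and 0.31 in late against early atresia. Over mitochondrial genes it was 0.23, 0.23 and 0.21. The mitochondrial genes had fewer reads, which also depends on gene length, with a median over genes of 358 normalized read counts in healthy follicles against 7364 for the cytosolic genes. Their median implied error in late against early atresia was 0.28 against 0.20.

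**Figure D4:**
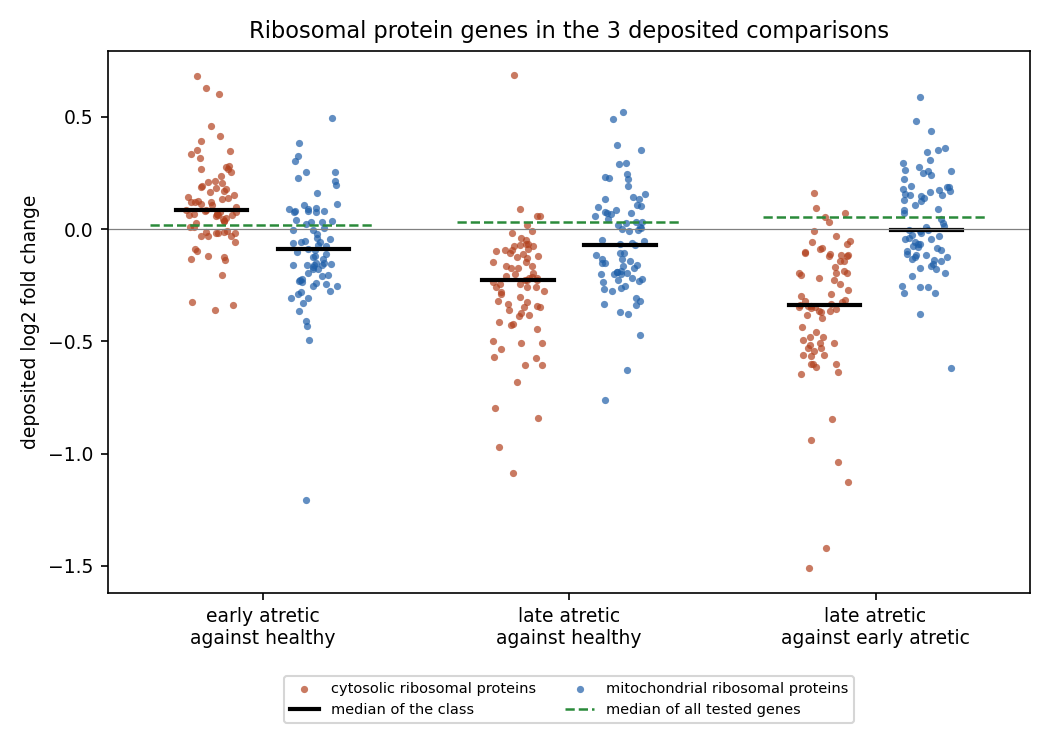
Deposited log2 fold change of each cytosolic and mitochondrial ribosomal protein gene with a mean of at least 100 in the 3 comparisons; each point is a gene, the black line the median of the class and the dashed line the median of all tested genes. The cytosolic median was 0.09, -0.23 and -0.34, and the mitochondrial median -0.09, -0.07 and 0.00.

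Genes that make or serve ribosomes were described alongside. Of 39 genes of ribosome assembly and RNA polymerase I, 2 (5.13%) rose and 0 fell in early against healthy, where 8.59% of all tested genes were called higher and 4.35% lower. The share of the list is below the background. Of the 39, 33 had a log2 fold change above 0 and 6 below in early against healthy, where 48.6% of all tested genes were below 0. BOP1 rose from 326 to 577, by 0.82 ± 0.22 on the log2 scale with an adjusted p of 0.0029, and PES1 from 1030 to 1423, by 0.47 ± 0.17 with an adjusted p of 0.044, by the authors' deposited table. Both proteins belong to the complex that matures the RNA of the large subunit. The median of the list was 0.18 in that comparison, 0.02 in late against healthy and -0.13 in late against early atresia. In the last pair of comparisons 0 genes were called. The unadjusted counts there were 0 higher and 0 lower, then 0 higher and 1 lower (background 9.20% and 2.96%, then 2.36% and 3.00%). Below 0 were 18 of the 39 genes, then 30, against 47.0% and 44.7% of all tested genes.

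Of 40 cytosolic translation factors, 1 rose and 1 fell in early atretic follicles, each a smaller share than the 8.59% and 4.35% of all tested genes. The medians of the list were 0.05, 0.00 and -0.02 in the 3 comparisons. EEF1A2, the elongation factor form of muscle and nerve, rose from 7.13 to 69.4, by 3.27 ± 0.57 on the log2 scale with an adjusted p of 8.9e-07 by the authors' deposited table. In late atretic follicles it was also higher than in healthy ones, at 57.0 against 6.91, or 3.03 ± 0.80, with an adjusted p of 0.0066 by the authors' deposited table. EIF4A2, an RNA helicase of translation initiation, fell in early atretic follicles from 7949 to 5315, by 0.58 ± 0.15 with an adjusted p of 0.0017 by the authors' deposited table. In late against early atresia 0 of the 40 passed, and 1 was higher and 2 lower at an unadjusted p below 0.05, where 2.36% and 3.00% of all tested genes were.

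Of 28 mitochondrial translation factors and tRNA synthetases, 0 rose and 2 (7.14%) fell in early atretic follicles, against 8.59% and 4.35% of all tested genes. RARS2, the mitochondrial arginyl-tRNA synthetase, fell from 873 to 406, by 1.11 ± 0.19 with an adjusted p of 5.8e-07 by the authors' deposited table. It was also lower in late atretic than in healthy follicles, at 526 against 848, or -0.69 ± 0.22, with an adjusted p of 0.038 by the authors' deposited table. GUF1, a GTPase of mitochondrial translation, fell from 426 to 258 in early atretic follicles, by 0.73 ± 0.22 with an adjusted p of 0.014 by the authors' deposited table. The medians of this list were -0.15, -0.04 and 0.16; in late against early atresia 0 passed, with 2 higher and 0 lower at an unadjusted p below 0.05 (background 2.36% and 3.00%). Of 21 genes of mitochondrial ribosome assembly and RNA handling 0 passed in any comparison, with medians of -0.16, -0.16 and 0.05; at an unadjusted p below 0.05, 2 were lower in the early comparison, 0 in late against healthy and 1 in late against early, against 9.82%, 2.96% and 3.00% of all tested genes.

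Among 12 regulators of mitochondrial gene expression, 2 rose in early atretic follicles and 1 was higher in late atretic ones, where 8.59% and 3.98% of all tested genes were called higher. PPARGC1B, a coactivator of nuclear genes for mitochondrial proteins, rose from 51.8 to 205, by 1.98 ± 0.51 with an adjusted p of 0.0020 by the authors' deposited table, and stood at 201 against 50.3 in late against healthy, or 2.00 ± 0.54 with an adjusted p of 0.0085. MYC, a transcription factor known to act on ribosome genes, rose in early atretic follicles from 780 to 1654, by 1.08 ± 0.30 with an adjusted p of 0.0047 by the authors' deposited table. Of 22 genes of the S6 kinases and the mTOR pathway, 1 rose and 1 fell in early atretic follicles, 4.55% each way against 8.59% higher and 4.35% lower over all tested genes. RPS6KA2, of the RSK family of S6 kinases, rose from 112 to 291, by 1.37 ± 0.27 with an adjusted p of 1.5e-05, and EIF4EBP1, the cap-binding inhibitor that mTOR phosphorylates, fell from 6849 to 2832, by 1.27 ± 0.34 with an adjusted p of 0.0028, by the authors' deposited table. In late against healthy 0 of the 22 passed, with 3 (13.6%) higher and 0 lower at an unadjusted p below 0.05, against 9.20% and 2.96% of all tested genes. Neither list had a call in late against early atresia, where 0 regulators were higher and 1 lower, and 1 gene of the S6 kinase list was higher and 1 lower, at that p (background 2.36% and 3.00%). The medians were -0.19, -0.14 and 0.00 for the regulators and 0.06, 0.07 and 0.05 for the S6 kinase list.

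**Figure D5:**
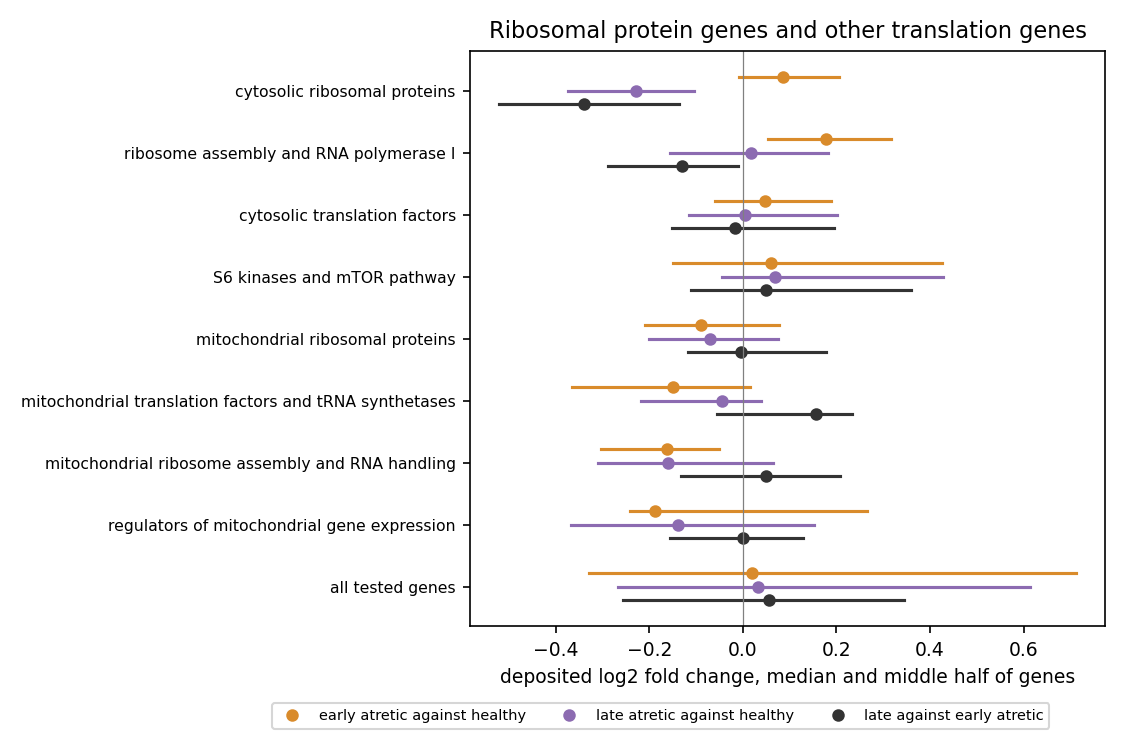
Median (point) and interquartile range (line) of the deposited log2 fold changes of the ribosomal protein genes, of 6 lists of other translation genes and of all tested genes in the 3 comparisons. The cytosolic ribosomal proteins have the lowest medians of the sets plotted in late against healthy (-0.23) and in late against early atresia (-0.34).

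Markers of granulosa cells and of other cells that a sample could hold also differed between the groups. Over all tested genes, 8.59% were called higher and 4.35% lower in early against healthy, 3.98% and 0.397% in late against healthy, and 0.0171% and 0.0912% in late against early atresia, so that a count of 0 in a short list says little in the comparisons with few calls. Of 15 granulosa markers, 10 fell in early against healthy and 0 passed in the comparisons with late atretic follicles, and their sum was 977850 in healthy and 293150 in early atretic follicles by the authors' deposited table. In late against early atresia, where the cytosolic genes lay lowest, this sum was 537367 against 296089. At an unadjusted p below 0.05, 4 granulosa markers were lower in late against healthy and 1 was higher in late against early atresia, against 2.96% lower and 2.36% higher over all tested genes. Of 14 macrophage markers, 8 rose in early against healthy, and of 13 tested 6 were higher in late against healthy, and their sum was 7628 in late against 3913 in early atretic follicles, with 0 passing between them and 0 of 13 tested at an unadjusted p below 0.05. For 12 stromal markers, 7 and 5 rose, and the sums were 32624 in late and 28517 in early atretic follicles. For 12 endothelial markers, 3 and 1 rose, and the sums were 1954 in late and 3235 in early atretic follicles. Between late and early atresia 0 stromal and 0 endothelial markers passed, with 2 higher and 1 lower and 0 higher and 1 lower at an unadjusted p below 0.05 (background 2.36% and 3.00%). No marker of these 4 lists was at 0 in any group. Of 6 theca markers, 5 of them tested, 1 fell in early atretic follicles, and of 4 erythroid markers, 3 of them tested, 0 passed and 1 was at 0 in every group. The part of these differences in those of the ribosomal protein genes was not tested.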

How the data were processed

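RNA was extracted with Trizol and made into Illumina libraries, per the labels' protocols. The authors deposited 3 tables of 21253 rows, of which 452 repeat another row and were dropped. Per the file headers they hold read counts per group, which are not whole numbers and were read as group means of a normalized signal, beside the authors' log2 fold change and their p-value, raw and adjusted. The submitters' processing notes list Bowtie 0.12.2 and, with no role, mm8 and mm9, which are builds of the mouse genome. Which tools counted and tested, and on which annotation and build, was not given in the sources used here.

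The deposited log2 fold change equalled the log2 ratio of the deposited means to within 0.0098 at means above 50. Calls are the authors' own at an adjusted p below 0.05, and no test was run anew, because the tables hold group means only; 0 per-sample columns were left out. The labels do not say that samples came from separate animals, so a p-value rests on the spread between these samples alone, and this may be technical. Implied errors were the absolute log2 fold change over the normal quantile of the two-sided p, where p was below 0.9. Sums, shares, medians and counts were computed with pandas 2.3.3 and scipy 1.17.1. Implied errors and counts of calls were checked on simulated data, while sums, shares and medians were not.

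The members and lists were chosen with earlier results of these data known. Single values of some genes are not reported here, though the genes are counted in sums, medians and counts. Named genes were members that passed, the 4 highest and 4 lowest by log2 fold change per class and comparison among those with a mean of at least 100, and fixed landmarks; other genes named for an unadjusted p, their share of a sum or a sign were chosen after their values were seen. The part of the rule by level per coding length could not be applied, since no coding lengths were used here. RefSeq NDDB_SH_1 served for names and overlaps only. In it, 21 members overlap another gene of the tables, and 26 a small nucleolar RNA gene. Alternatives were other thresholds, scalings, memberships and totals.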

Additional observations from a re-analysis of the deposited data

Results flagged for a closer look

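RPL37 was the 1 ribosomal protein gene whose late and early atretic levels differed in the authors' own test of that difference, with a log2 fold change of -0.85 ± 0.19 and an adjusted p of 0.015 by the authors' deposited table. Against healthy follicles it had values of opposite sign, 0.42 ± 0.21 in early and -0.45 ± 0.26 in late atretic follicles by the authors' deposited tables, and neither passed. Such signs were not particular to RPL37. Of 76 tested cytosolic genes, 56 were above 0 in early against healthy and 70 below 0 in late against healthy.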

How the results depend on the processing

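No paired analysis was possible because the tables hold group means only, and for the same reason no replicate could be left out. Of the results that answer a comparison, 145 alternatives were marked as the same and 32 as moved. Counts were the same within 1.5 times, and medians within the median implied error. Summed shares have no such error, and some were marked as moved at less than 1.5 times, such as 4.60% to 5.36% in healthy follicles. At an unadjusted p below 0.05, cytosolic genes numbered 4 higher and 1 lower in early against healthy, 6 lower in late against healthy and 29 lower in late against early atresia. Mitochondrial genes then numbered 2 lower, 1 lower, and 2 higher with 2 lower. Requiring also a log2 fold change of at least 1 left 0 lower cytosolic genes in both comparisons with late atretic follicles, so the call of RPL37 was lost, as was the call in late against healthy. In late against early atresia the count was 0 at an adjusted p below 0.01, 3 below 0.10, and 3 when adjusted over genes at or above the median mean, where RPS28 (0.047) and RPS29 (0.037) also passed. At 0.10, 1 mitochondrial gene was lower in late against healthy. Adding the cytosolic members that the names miss gave shares of 5.36% and 5.37% in healthy, 6.17% in early and 4.82% in late atretic follicles. Leaving the 100 highest other genes out of the total gave cytosolic shares of 6.49% in healthy, 7.02% and 7.01% in early and 5.50% in late atretic follicles. Their order was as before, but early atretic follicles stood less far above healthy ones, and late atretic ones further below. The mitochondrial shares were then 0.341%, 0.317% and 0.319%, in which healthy follicles stood further above the others. Of the genes under the naming rule, 20 values close to 0 changed sign, and other members did too. Under scaling by the median ratio the cytosolic genes below 0 in early against healthy went from 20 to 10 and the mitochondrial ones from 50 to 40. The share of all tested genes below 0 went from 48.6% to 40.7%. Scaling by the median ratio turned MRPL10 (0.0079), MRPS12 (0.012), MRPS18B (0.013), MRPS18C (0.0011), RPL11 (0.065), RPL22 (0.039), RPS19 (0.040), RPS27 (0.057), RPS3A (0.014) and RPS4X (0.053) in early against healthy, RPL5 (0.029) and RPS3A (0.023) in late against healthy, and RPS27L (-0.017) in late against early atresia. Centring on the median of all tested genes turned MRPL19 (-0.013) and RPL10 (-0.0092), then MRPL14 (-0.023), MRPL3 (-0.015) and RPS13 (-0.015), then RPS27L (-0.023) and RPS3A (-0.00025). Depth limits cannot be given, since the files hold no counts per library.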

Other observations

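Some ribosomal protein genes have names of another pattern. The 7 such cytosolic genes, among them the stalk proteins RPLP0, RPLP1 and RPLP2, the laminin receptor protein RPSA, FAU and RPL36AL, had medians of 0.08, -0.23 and -0.22 in early against healthy, late against healthy and late against early atresia. None of the 7 passed by the authors' deposited tables. Over all tested genes 8.59%, 3.98% and 0.0171% were called higher there, and 4.35%, 0.397% and 0.0912% lower. At an unadjusted p below 0.05, 0, 1 and 3 of the 7 were lower, against 9.82%, 2.96% and 3.00% of all tested genes. In each comparison 0 were higher at that p, against 13.7%, 9.20% and 2.36%. The gene LOC102401704, named RPL17 in RefSeq, went from 1834 (healthy) to 2576 (early atretic), at 0.49 ± 0.26 with an adjusted p of 0.24 by the authors' deposited table. Of 5 further mitochondrial genes 0 passed, with 1 higher and 0 lower, then 0 and 0, then 0 higher and 1 lower at an unadjusted p below 0.05. Over all tested genes 13.7% were higher and 9.82% lower at that p, then 9.20% and 2.96%, then 2.36% and 3.00%.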
